A study of Homo sapiens with 16 samples.

Results

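Cohesin and CTCF were compared in HEK293 cells, a human embryonic kidney cell line, of the eGFP-YAP genotype, after 1 h in 200 mM sorbitol. The comparison rests on 4 CUT&Tag libraries of the 16 in the series: 2 with an antibody against RAD21 and 2 with an antibody against CTCF. In CUT&Tag an antibody on isolated nuclei recruits a Tn5 transposase, which cuts nearby DNA and adds the adapters through which fragments are sequenced and counted. The same contrast was read in 4 vehicle libraries, 2 for each target, which share the cell line and genotype. The table's headers mark vehicle as a time of 0 and sorbitol as 1 h, while the protocol speaks of untreated cells collected in parallel, so a difference in time cannot be told apart from the treatment. The series text names serum starvation ahead of sorbitol. H3K27ac and eGFP-YAP libraries (read by a GFP antibody and called YAP1 here) served only as outside levels. A control antibody was not analysed here, and nothing in the labels says whether replicates came from separate cultures, so p-values measure only the spread between these libraries.

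The deposited table holds 74404 intervals shared by all libraries. Of these, 73975 on chromosomes 1 to 22 and X were kept, 12 inside the YAP1 gene were left out, and 417 lay on other sequences. An interval was tested where its counts were high enough in at least 2 of the 4 libraries, which left 22671. A called interval has an edgeR quasi-likelihood adjusted p under 0.05.

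CTCF is a zinc finger protein that binds a long DNA motif and stops cohesin there. Cohesin is a ring of SMC1A, SMC3, RAD21 and a STAG subunit that extrudes chromatin loops, and it is loaded by NIPBL and MAU2 and released by WAPL. Because cohesin halts at CTCF sites, the 2 proteins usually share many intervals, while cohesin is also found at active promoters and enhancers where CTCF is not bound. The study asked whether the occupancy of such architectural proteins changes under hyperosmotic stress; the comparison here asks where they differ in stressed cells.

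Some of the intervals with large contrasts held a CTCF motif or a tandem repeat, and examples are shown here from hg38, named by a gene nearby or around them; others, such as those at MRPS22, AJM1, TLE3, COLEC11 and SEMA4D, held neither. The first 4 lines are the best matches to the CTCF consensus, in capitals and read on the strand of the match, in intervals with many CTCF counts and no RAD21 count. The next pair comes from intervals with such a match where RAD21 was above CTCF.
MZF1, chr19:58606561-58606590: cctagtcgCCAGTAGGGGGCGCaatggcag
ACTR3, chr2:113979905-113979934: gcctccggCCACCAGGGGGCAGccagggcg
IGHVIII-67-3, chr14:106692084-106692113: acttggaaCCACCAGGGGGCACtcaggaca
CCDC8, chr19:46402376-46402405: cccagctgCCGCCAGGGGGCGCaacgtggc
IL17REL, chr22:49993533-49993562: gcgtgctgCCACCAGGCGGCAGtggctctt
CDH15, chr16:89193157-89193186: ggggtttgCGAGCAGGGGGCGGgttgggtg
The first 3 matches had 0 mismatches and the other 3 had 1.

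Other intervals with large contrasts held tandem repeats, and the lines below give the first 30 bases of 2 neighbouring repeat units on the plus strand, with capitals for bases that both units share. RAD21 was above CTCF at SLC6A19 and VPS53, where units were 69 and 82 bases long, and below it at ANKRD33B and BRD3OS, where they were 31 and 48 bases long.
SLC6A19 unit 1, chr5:1170291-1170320: GCTGCAGTGGGTTACAGAGAACGTCTGGAT
SLC6A19 unit 2, chr5:1170360-1170389: GCTGCAGTGGGTTACAGAGAACGTCTGGAT
VPS53 unit 1, chr17:649235-649264: GAGGACAGAGGAATGGAACAGGCACCGAAG
VPS53 unit 2, chr17:649317-649346: GAGGACAGAGGAATGGAACAGGCACCGAAG
ANKRD33B unit 1, chr5:10639444-10639473: GGTGACGCGGAGTTGCGCGGCGATGTTAGC
ANKRD33B unit 2, chr5:10639475-10639504: GGTGACGCGGAGTTGCGCGGCGATGTTAGC
BRD3OS unit 1, chr9:134012932-134012961: ACACCGCGGCCCCGGGACTGCGATACACCG
BRD3OS unit 2, chr9:134012980-134013009: ACACCGCGGCCCCGGGACTGCGATACACCG
In all 4 pairs the 30 bases were the same in both units.

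The RAD21 libraries were shallower. Over kept intervals the CTCF libraries held 1523792 and 1565071 counts and the RAD21 libraries 614958 and 520367. The median tested interval had 26 and 28 counts with CTCF and 10 and 8 with RAD21. Mitochondrial intervals, which were not kept, took 32.8% and 33.9% of all CTCF counts and 44.8% and 46.0% of all RAD21 counts. Log CPM (counts per 1000000) of tested intervals correlated at 0.889 between the CTCF replicates, 0.707 between the RAD21 replicates, and 0.378 to 0.397 between a CTCF and a RAD21 library; this is across intervals, which are not independent. In a simulation of 22671 intervals at this depth, 200 were given a known change. The test recovered 4% of 2-fold and 48.5% of 4-fold differences among them. Many more than 200 intervals were called in the data, so the cut on p differs there and recovery in the data was not measured. The vehicle libraries held 3616235 and 2475732 kept counts with CTCF and 1341257 and 602195 with RAD21. Raw counts of the 2 treatments, given side by side below, are therefore not on one scale.

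RAD21 was called below CTCF at more intervals than above it. Of 22671 tested intervals, 5835 (25.7%) were called, with RAD21 above CTCF at 1605 (7.08%) and below at 4230 (18.7%). These directions are relative to a scaling (TMM) under which the median interval lay at a log2 fold change of 0.00. Scaling to the weakest 25% of tested intervals moved that median to -0.25 and the split to 938 above and 5199 below; scaling to promoters without the CTCF consensus moved it to -0.37 and the split to 737 above and 5724 below. DESeq2 called 401 above and 1983 below, all of them among the edgeR calls. Among the 2746 intervals with a mean of at least 50 counts the split was near even, with 844 above and 969 below. TMM was recomputed on those intervals alone. Only 269 of the 844 were also above in the main fit, while all 969 were also below in it. The near even split therefore came with a changed scaling. Of all tested intervals, 6265 passed the count filter through CTCF alone and 4339 through RAD21 alone. Without CTCF sorbitol replicate 1 edgeR called 2720 intervals and without replicate 2 it called 2638.

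The clearest separation was at distal CTCF sites. Intervals were classed as promoter, where an annotated start site lay no more than 1 kb away, or distal, and by a match to the CTCF consensus with at most 1 mismatch. Distal intervals with the consensus held 17.3% and 17.8% of the kept counts of the CTCF libraries and 6.40% and 6.35% of those of the RAD21 libraries, that is 17.6% ± 0.349 and 6.38% ± 0.0312 (SD, n = 2), a log2 ratio of -1.46. The groups did not overlap; a two-sided exact permutation test gave p = 0.33, and no smaller value is possible with 2 libraries on each side. The RAD21 share stood nearer to the shares of YAP1 (4.09% ± 0.059) and H3K27ac (3.18% ± 0.0573) than to that of CTCF. Promoters without the consensus showed the opposite order, with 39.4% and 40.6% of CTCF counts and 49.8% and 52.0% of RAD21 counts (log2 ratio 0.35; exact permutation p = 0.33). Distal intervals without the consensus held 29.9% ± 1.46 and 36.3% ± 1.53, and promoters with it 12.5% ± 0.251 and 6.45% ± 0.0473. Shares are taken inside a library over all kept intervals, so neither the scaling between libraries nor the count filter enters them.

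**Figure D1:**
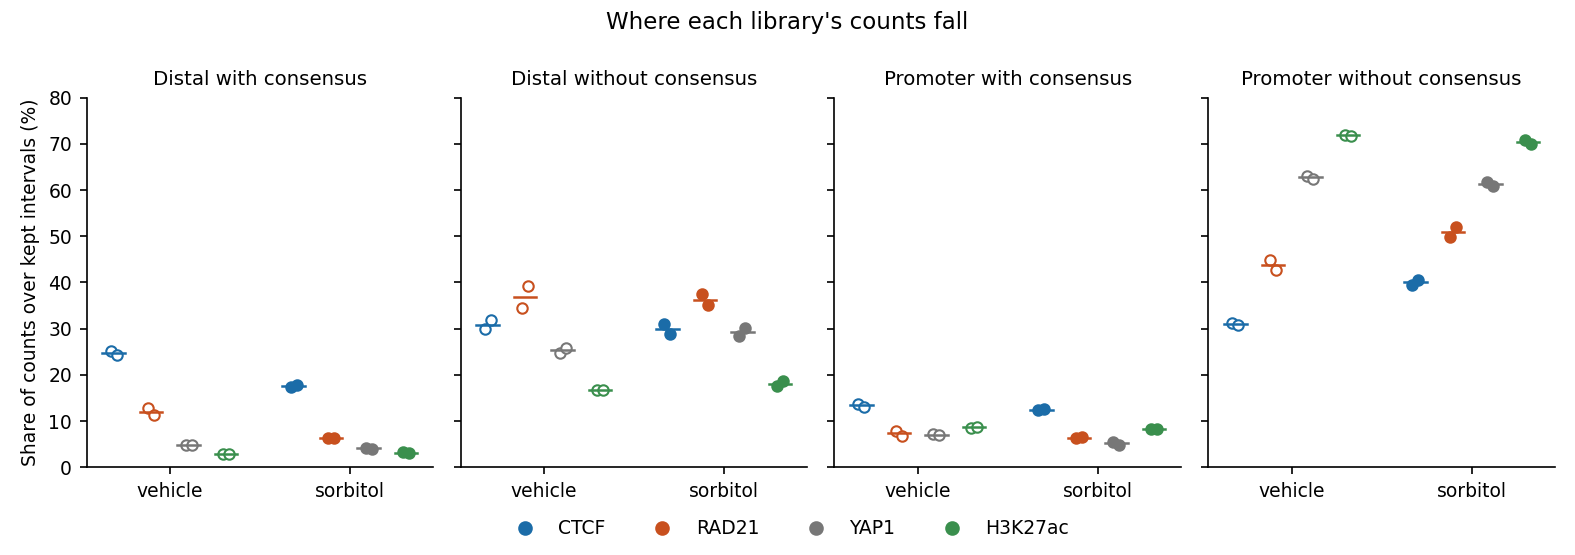
Share of each library's kept counts (%, y axis) in 4 interval classes, by target (colour) and treatment (open points vehicle, filled points sorbitol); points are the 2 libraries and lines their means. In sorbitol, the RAD21 libraries hold 6.40% and 6.35% in distal intervals with the consensus, below both CTCF libraries at 17.3% and 17.8%, and lie above CTCF at promoters without it.

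The same classes differed interval by interval. Among 4127 tested distal intervals with the consensus, RAD21 was below CTCF at 1947 (47.2%) and above at 15 (0.363%), and the median log2 fold change was -1.68. The median log2 ratio of same-numbered libraries, from CPM with 1 added, was -1.57 and -1.63, though such libraries are not known to be pairs. At 2419 promoters with the consensus, 955 (39.5%) were below and 51 (2.11%) above, with a median of -1.06. At 4938 distal intervals without it, 735 (14.9%) were below and 645 (13.1%) above, with a median of 0.10. At 11187 promoters without it, 593 (5.30%) were below and 894 (7.99%) above, with a median of 0.36. Of the tested distal intervals with the consensus, 2637 passed the count filter through CTCF alone and so had to lean towards CTCF; the corresponding number for promoters without the consensus was 1266 through CTCF alone and 2553 through RAD21 alone. These class medians and counts are therefore a description, and the shares above do not depend on the filter.

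Among tested intervals the contrast followed how well the sequence matched the CTCF motif. The count filter enters these values too, since many intervals with the consensus passed it through CTCF alone, as given above. They are therefore a description. Intervals with 0 mismatches in their best match had a median log2 fold change of -1.89, with 1264 of 2152 (58.7%) called below and 2 called above. With 1 mismatch the median was -1.20, with 2 it was 0.16, with 3 it was 0.46 and with 4 it was 0.59, where 235 of 1061 intervals (22.1%) were above. Within tested distal intervals with the consensus, the median lay between -1.43 and -1.84 in 8 bins of GC content, and the share called below was 34.3% under 40% GC and 58.5% over 70% GC. With GC-corrected offsets the class median was -1.36. Position in the gene followed the same division, since untranslated exons (mostly promoters) had a median of 0.28 and coding exons, introns and intergenic intervals had medians of -0.88, -0.66 and -0.78.

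**Figure D2:**
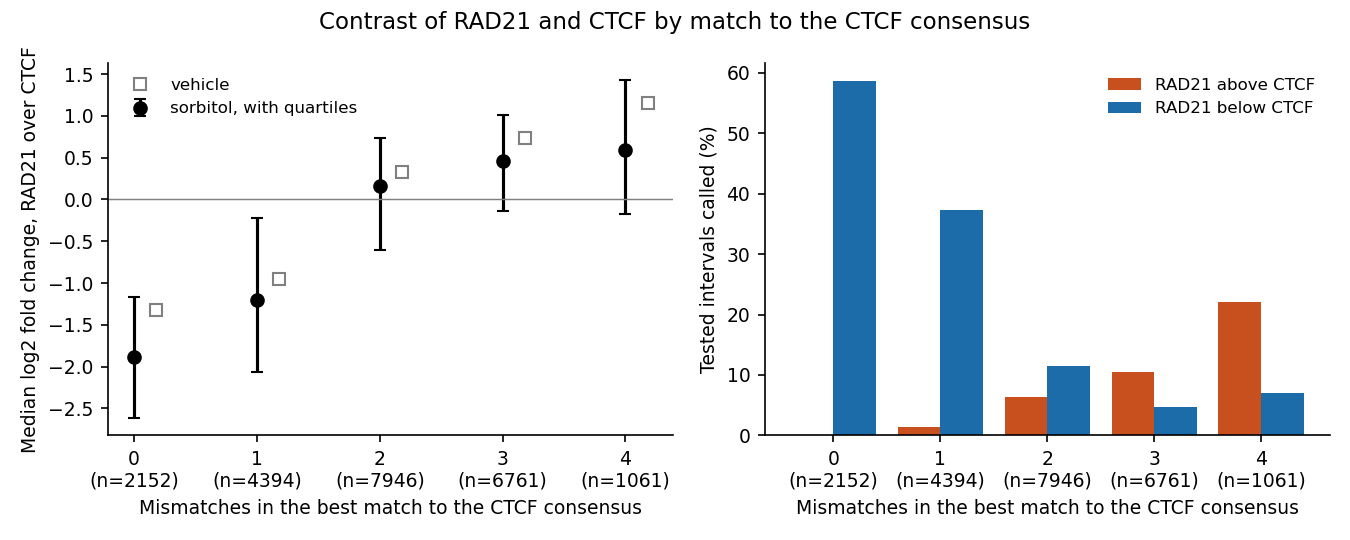
Left, median log2 fold change of RAD21 over CTCF with quartile bars in sorbitol cells (filled) and the vehicle median of the same intervals (open), by mismatches in the best match to the CTCF consensus; right, share of tested intervals called in each direction. The sorbitol median goes from -1.89 with 0 mismatches to 0.59 with 4. Intervals with more mismatches are not drawn. All values are over tested intervals, so the count filter enters them.

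Levels measured in other libraries gave the contrast without the count filter. Kept distal intervals with the consensus, without those above 0.1% of any of the 4 sorbitol libraries, were split into 4 groups by CTCF level in vehicle. Each group held 2543 or 2544 intervals, and CPM was summed in each. The log2 ratio of summed CPM, RAD21 over CTCF in sorbitol, was -0.45 ± 0.01, -0.81 ± 0.06, -1.19 ± 0.07 and -1.69 ± 0.04 (SD, n = 2) from the weakest to the strongest CTCF sites. Split by RAD21 level in vehicle instead, the ratio was -1.37, -1.31, -1.44 and -1.44, so that sites strong in RAD21 before sorbitol had as low a ratio as those weak in it. Split by H3K27ac level in sorbitol, it was -1.41, -1.29, -1.41 and -1.46. Promoters without the consensus differed there, at -0.27, 0.07, 0.27 and 0.33 from the least to the most acetylated group.

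**Figure D3:**
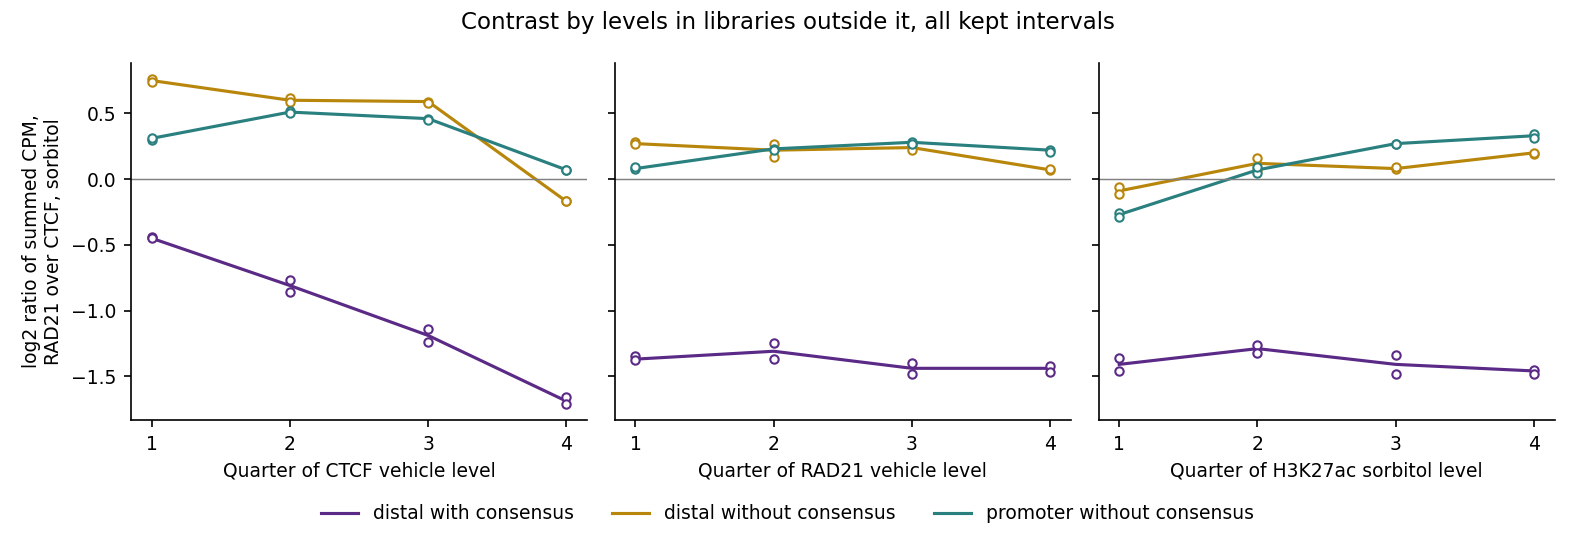
Log2 ratio of summed CPM, RAD21 over CTCF in sorbitol (y axis), for all kept intervals of 3 classes, in 4 equal groups (1 weakest, 4 strongest) of the level in libraries outside the contrast; open points are the 2 replicate numbers and lines their mean. For distal intervals with the consensus the ratio falls from -0.45 to -1.69 with CTCF level and stays between -1.29 and -1.46 with RAD21 and H3K27ac level.

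Motif content differed between the called sets, and no difference was tested. In the central 300 bases, either strand, the CTCF consensus with at most 1 mismatch was found in 2316 of 4230 intervals where RAD21 was below CTCF (54.8%) and in 24 of 1605 where it was above, against 21.6% of all tested and 16.6% of all kept intervals. With no mismatch it was found in 1036 (24.5%) and 1, against 1786 (7.88%) of all tested. The GC box GGGCGG occurred in 34.4% of intervals below, 44.9% of those above and 49.0% of all tested, against 26.6% of all kept intervals, and the AP-1 letters TGANTCA in 5.27%, 3.12% and 4.26% of the same sets, against 8.43%. A match is a description of these letters and not a bound site. H3K27ac in sorbitol was also unequal: the median level was 22.6 and 22.4 CPM in its 2 libraries where RAD21 was above, 4.77 and 4.61 where it was below, and 14.5 and 14.4 over all tested intervals. Intervals not called had 20.8 and 20.3 CPM, near those above, so the lower level was that of the intervals below. Distal intervals above without the consensus had 6.39 and 6.85 CPM, against 5.0 and 5.14 for all tested of that class.

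Sites bound by CTCF with no RAD21 count were few but deep. Of 13220 tested intervals with at least 20 CTCF counts in both libraries, 122 (0.923%) had 0 RAD21 counts in both; the number was 54 of 3025 (1.79%) for distal intervals with the consensus and 36 of 2115 (1.70%) for those without it. A count of 0 allows up to 3 counts per library, so such differences are given as bounds. The interval at chr19:58606277-58606951, near the end of chromosome 19 and 32702 bp from the nearest coding gene, the zinc finger transcription factor gene MZF1, had 98 and 113 CTCF counts and 0 and 0 RAD21 counts. RAD21 was at least 12.9-fold lower there (adjusted p = 1.3e-04), while in vehicle the 4 counts were 185 and 99 for CTCF and 8 and 4 for RAD21. The vehicle libraries were deeper, and scaled CTCF was higher in sorbitol there, by a log2 value of 0.97 (edgeR adjusted p = 3.9e-04). At chr2:113979295-113980057, at the start of the noncoding gene LINC01191 and 28471 bp from the nearest coding gene, the Arp2/3 subunit gene ACTR3, CTCF had 122 and 87 counts and RAD21 0 and 0, at least 12.9-fold lower (adjusted p = 2.2e-04). The interval at chr19:46402162-46402849, in an intron of ENSG00000269151 and nearest to the coding gene CCDC8, had 73 and 73 against 0 and 0 counts, at least 8.95-fold lower (adjusted p = 4e-04). Vehicle counts were 63 and 23 against 4 and 4 near ACTR3 and 126 and 71 against 13 and 15 near CCDC8, where the vehicle contrast missed the threshold (adjusted p = 0.053 and 0.055). Scaled CTCF was higher in sorbitol at both, by log2 values of 2.69 and 0.96 (edgeR adjusted p = 2.2e-07 and 0.0016).

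The deepest example carried no such motif. An interval of an intron of MRPS22, a gene for a protein of the small mitochondrial ribosomal subunit, at chr3:139260607-139260859, had 352 and 356 CTCF counts and 0 and 0 RAD21 counts, at least 43.4-fold lower (adjusted p = 2.1e-06). Its best match to the consensus had 5 mismatches, and in vehicle it had 344 and 307 CTCF counts and 14 and 2 RAD21 counts. Scaled CTCF was higher in sorbitol at this interval, by a log2 value of 1.47 (edgeR adjusted p = 1.9e-07). An interval of a coding exon of AJM1, at chr9:136845731-136846177, had 151 and 154 against 0 and 0 counts, at least 18.7-fold lower (adjusted p = 3.7e-05).

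Several of the largest deficits lay in tandem repeats, defined as central 300 bases that match themselves at 70% or more at a shift of 5 to 100 bases. In an intron of ANKRD33B, at chr5:10638957-10640138, CTCF had 195 and 206 counts in sorbitol and 3 and 1 in vehicle, while RAD21 had 0 and 0 in sorbitol and 2 and 0 in vehicle (at least 24.6-fold lower than CTCF in sorbitol; adjusted p = 1.5e-05). In an intron of RIPK1, a kinase of cell death signalling, at chr6:3092085-3092584, CTCF had 180 and 76 counts and RAD21 0 and 0 (at least 15.9-fold lower; adjusted p = 7.5e-04). The intergenic interval nearest to BRD3OS, chr9:134012735-134013403, had 141 and 92 against 0 and 0 (at least 14.4-fold lower; adjusted p = 2.2e-04), and that at chr17:191828-192678, which is 241 bp from LINC02091 and 10178 bp from the nearest coding gene DOC2B, a calcium sensor of exocytosis, had 145 and 66 against 0 and 0 (at least 13.1-fold lower; adjusted p = 8e-04, and 0.055 when all 8 libraries shared one fit). CTCF counts at RIPK1, BRD3OS and DOC2B in vehicle were 2 and 12, 11 and 0, and 2 and 19, so these intervals carried little CTCF before sorbitol.

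The immunoglobulin heavy chain variable genes, silent outside B cells and rich in CTCF sites, formed a run of such intervals. Between positions 105939756 and 106879812 of chromosome 14, 16 of 22 tested intervals (72.7%) had RAD21 below CTCF, against 18.7% of all tested and 47.2% of distal intervals with the consensus, and the median log2 fold change was -3.87. The median counts were 26.5 and 32.5 with CTCF and 0 and 0 with RAD21, so most of the 22 could pass the count filter only through CTCF, and the 18 other kept intervals of the 40 in the span were not tested. In vehicle the median of the same span was -2.90. All 16 were among the 20 tested intervals of the span that held the consensus. The strongest, chr14:106691582-106692425 beside IGHVIII-67-3, had 96 and 97 CTCF counts and 0 and 0 RAD21 counts, at least 11.8-fold lower (adjusted p = 1.6e-04).

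Intervals with RAD21 above CTCF were more often repeats, and 66 (4.11%) held the consensus, against 28.9% of all tested. Of the 1605, 210 (13.1%) were tandem repeats, against 85 of 4230 below (2.01%) and 831 of all tested (3.67%). The 831 repeat intervals had a median log2 fold change of 0.70, and 25.3% of them were called above, against 7.08% of all tested. Among those without the consensus and distal, the median was 0.72. Intervals within 3 Mb of a chromosome end made up 344 of those above (21.4%), 466 of the 4230 below and 12.2% of all tested; with the repeats left out, 9.23% of tested intervals near the ends and 6.06% of the others were above. Intervals over 100 kb from any start site, 183 in number, were above at 60 (32.8%, against 7.08% of all tested), with a median of 1.05. The repeat definition was chosen after values were seen.

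Counts for the largest of these were low in CTCF and varied between RAD21 libraries. In an intron of VPS53, a subunit gene of a Golgi tethering complex, at chr17:649146-649476, CTCF had 1 and 3 counts and RAD21 21 and 41, a CPM ratio of 42.0 (95% exact counting interval 15.6 to 159; adjusted p = 3.4e-04), and all 4 vehicle counts were 0. In an intron of AHRR, the repressor of the aryl hydrocarbon receptor, at chr5:394213-394927, CTCF had 2 and 2 counts and RAD21 8 and 48 (fitted log2 value 5.17 ± 0.92, SE; adjusted p = 0.0024); the vehicle counts were 1 and 10 against 22 and 20. The intergenic interval chr5:1170239-1170642, 7904 bp from TERLR1 and 30953 bp from the nearest coding gene SLC6A19, a transporter of neutral amino acids, had 6 and 6 against 65 and 22 counts, a log2 difference of 4.23 ± 0.54 (SE; adjusted p = 3.7e-04), and vehicle counts of 64 and 11 against 24 and 6. The RAD21 replicates lay far apart at these intervals, most of all at AHRR.

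Counts were higher at 3 others of the 10. Upstream of TLE3, a corepressor gene, chr15:70099415-70099924 had 16 and 26 CTCF counts and 100 and 93 RAD21 counts, or 15.8 ± 4.71 and 198 ± 7.36 CPM (SD, n = 2), which gives a log2 difference of 3.63 ± 0.27 (SE; adjusted p = 8.7e-06). The interval was no repeat, and the vehicle contrast was 4.12 (adjusted p = 2.6e-06). At the start site of COLEC11, a collectin of the complement system, chr2:3605060-3605947 had 23 and 66 against 211 and 194 counts, 33.2 ± 21.6 and 415 ± 12.1 CPM, also a log2 difference of 3.63 ± 0.31 (adjusted p = 2.2e-05); the vehicle contrast was 1.29. In an intron of SEMA4D, a semaphorin gene, chr9:89371819-89372453 had 32 and 31 against 87 and 150 counts, a log2 difference of 3.36 ± 0.32 (adjusted p = 5e-05) that stood at 0.37 in vehicle. The repeats in introns of CROCC2, FAM120B, AFDN (an adherens junction protein) and GRK1 (rhodopsin kinase) had log2 differences of 3.41 ± 0.31, 3.91 ± 0.63, 3.36 ± 0.51 and 3.65 ± 0.44. The rule that chose these 10 intervals asked for no overlap between the targets.

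**Figure D4:**
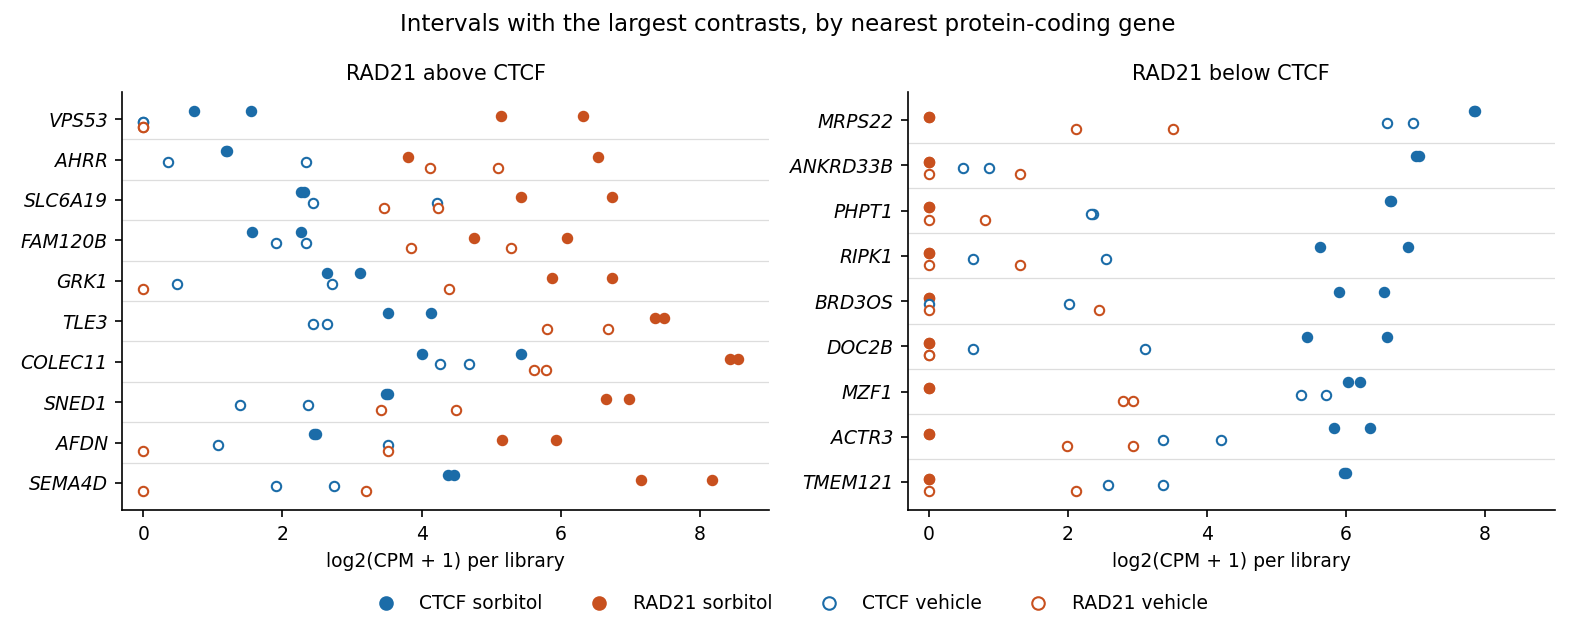
Level in each library, log2(CPM + 1) on total kept counts (x axis), at the intervals with the largest contrasts, labelled by nearest protein-coding gene; colours give the target, filled points sorbitol and open points vehicle. Filled RAD21 points lie right of filled CTCF points on every line on the left, and at 0 on every line on the right.

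Only 15 distal intervals with the consensus had RAD21 above CTCF. The naming rule picked 2 of them. The interval over an untranslated exon of IL17REL, chr22:49993126-49993914, had 6 and 25 against 21 and 18 counts, 11.5 ± 9.69 and 39.9 ± 0.818 CPM, a log2 difference of 1.77 ± 0.57 (adjusted p = 0.042). The call was lost with DESeq2 (adjusted p = 0.11) and without CTCF sorbitol replicate 1 (log2 difference 1.05, adjusted p = 0.37), and in vehicle CTCF had 174 and 98 counts against 43 and 12. Over a coding exon of CDH15, a muscle cadherin gene, chr16:89192417-89193437 had 261 and 276 against 186 and 201 counts, 203 ± 0.0581 and 399 ± 57.0 CPM, a log2 difference of 0.97 ± 0.16 (adjusted p = 0.0014). The vehicle contrast at CDH15 was 1.57 (adjusted p = 8.1e-05).

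RAD21-above intervals also gathered in 9 neighbourhoods of 4 or more, each within 10 kb of the next. The largest, chr17:43233653-43301276, spans 13 annotated U2 small nuclear RNA genes, repeated copies of a splicing RNA, and 17 of its 20 tested intervals were above. Their summed level was 1700 and 1390 CPM with CTCF and 3690 and 3320 with RAD21, and the log2 fold changes ran from 0.93 to 1.70. A run over 18 annotated members of the 5S ribosomal RNA family, 1 of them a pseudogene, chr1:228610129-228648462, had 10 of 33 above, with 1050 and 1020 CPM against 1720 and 1600. All 6 tested intervals over nuclear copies of mitochondrial genes, chr1:629132-634774, were above, with 56500 and 58300 CPM against 99200 and 105000; the mitochondrial share was also higher in the RAD21 libraries, as given above, and its part in this result was not tested. In one fit on 8 libraries the 3 strongest of these lost the call (adjusted p = 0.061 to 0.075). Reads from such copies cannot be placed on 1 copy. In vehicle the same 3 groups had 17, 9 and 6 intervals above.

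Neighbourhoods at single-copy genes were smaller. The 4 intervals at and upstream of the TLE3 start, chr15:70097091-70101546, summed to 47.9 and 69.0 CPM with CTCF and 441 and 471 with RAD21, with a median log2 difference of 2.90, and none was a tandem repeat or held the consensus. The 5 intervals of CROCC2, chr2:240976330-240985441, 4 of them tandem repeats, summed to 34.8 and 45.4 against 317 and 361 CPM. At GALNT9, an enzyme gene of O-glycosylation, all 4 intervals were tandem repeats and summed to 675 and 632 against 1950 and 2370 CPM. Summed H3K27ac at the TLE3 intervals was 59.3 and 58.8 CPM in sorbitol.

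Of the 5 strongest intervals of the 4 libraries, 3 are nuclear copies of mitochondrial genes on chromosome 1 and were called with RAD21 above, at log2 differences of 0.86, 0.80 and 0.82 (adjusted p = 1.4e-06, 2.6e-06 and 2.1e-06). The other two differed less. An interval of guanine runs in LINC00486, chr2:32916142-32916614, held 133926 and 107623 CTCF counts and 76664 and 53651 RAD21 counts, a log2 difference of 0.53 ± 0.15 (adjusted p = 0.053). It passed the test without CTCF sorbitol replicate 1 (0.68) or replicate 2 (0.29). At YAP1P1, a processed pseudogene of YAP1, chr6:147407104-147408273 had 27860 and 29814 against 13101 and 11202 counts, a log2 difference of 0.19 ± 0.05 (adjusted p = 0.016) whose sign depends on the scaling: it was -0.06 on the weakest 25% of intervals and -0.18 on promoters without the consensus. It passed the test in no fit that left out a library (0.12 to 0.17). The 46 intervals above 0.1% of any of the 4 libraries took 22.3% and 20.5% of kept CTCF counts and 30.5% and 28.9% of kept RAD21 counts, and without them the log2 ratio of shares at distal intervals with the consensus was -1.25.

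Genes of the CTCF and cohesin system were themselves split. Of 17 tested intervals within 10 kb of their start sites, 2 were above (11.8%, against 7.08% of all tested) and 7 below (41.2%, against 18.7%), with a median log2 fold change of -0.13. DESeq2 called 1 above and 2 below. The promoter of ESCO1, a cohesin acetyltransferase, had 228 and 187 CTCF counts and 24 and 14 RAD21 counts, a log2 difference of -2.02 ± 0.28 (adjusted p = 6.3e-04). The CTCF promoter had 174 and 121 against 22 and 25 counts (-1.21, adjusted p = 0.014). Intervals at PDS5B, STAG2, CTCFL and MAU2 were also below, at -1.58, -1.58, -1.54 and, for 2 intervals at MAU2, -2.59 and -2.41. At the promoter of WAPL, which releases cohesin, CTCF had 24 and 22 counts and RAD21 17 and 26, a log2 difference of 1.35 ± 0.43 (adjusted p = 0.04), and HDAC8, a cohesin deacetylase, had 222 and 229 against 159 and 138 counts near its start (0.83, adjusted p = 0.0033). The promoters of SMC3 (0.47), NIPBL (0.59) and SMC1A (0.75) did not pass the test.

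At immediate early and stress genes RAD21 was below CTCF wherever a call was made. Of 58 tested intervals, 15 were below (25.9%, against 18.7% of all tested) and 0 above with edgeR, with 18 below and 2 above at an unadjusted p under 0.05 and 7 below and 0 above with DESeq2; the median was -0.43. The promoter interval of EGR1, a growth and stress transcription factor, had 751 and 789 CTCF counts and 197 and 131 RAD21 counts, a log2 difference of -0.80 ± 0.15 (adjusted p = 0.0036). KLF4 had 209 and 257 against 15 and 16 counts (-2.46 ± 0.26, adjusted p = 1.1e-04), and ATF3 380 and 430 against 102 and 101 (-0.55, adjusted p = 0.026). GADD45B (-1.31), DUSP1 (-0.93 and -1.22) and 4 intervals at JUND (-0.74 to -1.69) were below as well, while the FOS promoter was not called (0.20). In vehicle the contrast was -0.95 at EGR1, -0.60 at KLF4, -0.12 at ATF3, -0.62 at GADD45B and -0.53 and -0.49 at DUSP1. At JUND it ran from -2.5 to 0.69. None of these called intervals passed the test, given below, of a change of contrast between treatments. Those at EGR1, KLF4 and GADD45B held the consensus, and those at ATF3 and DUSP1 did not.

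Osmotic response genes, YAP targets, insulated loci and housekeeping genes made up the other lists. Of 23 intervals at osmotic response genes, 5 were below (21.7%, near the 18.7% of all tested) and 0 above, with 6 and 1 at an unadjusted p under 0.05 and none with DESeq2; they lay at SGK1 (-2.45), SLC6A6 (-1.93), a taurine transporter, HSPA8 and DNAJB1, and the promoters of NFAT5, the tonicity transcription factor (0.64), and SLC5A3 (-0.53) were not called. Of 19 intervals at YAP target genes none was called with edgeR or DESeq2, with 4 above and 2 below at an unadjusted p under 0.05, and CCN2 had 30 and 34 against 20 and 15 counts. At loci known for CTCF insulation, 7 of 23 were below (30.4%, against 18.7% of all tested) and 2 above (8.7%, against 7.08%), and DESeq2 called 4 below and 0 above. MEG3 had 67 and 91 CTCF counts and 4 and 4 RAD21 counts (-2.84 ± 0.46, adjusted p = 0.0015), and an intron of IGF2 217 and 226 against 19 and 17 (-2.18, adjusted p = 1.6e-04), whereas an interval 5' of IGF2 had 49 and 40 against 36 and 32 (1.04, adjusted p = 0.031). In the HOXA cluster the interval between HOXA7 and HOXA9 had 195 and 234 against 30 and 29 counts (-1.42, adjusted p = 0.0013), and that at HOXA13 had 10 and 14 against 17 and 17 (1.93, adjusted p = 0.016). Among 27 housekeeping gene intervals, 3 were below (11.1%, against 18.7%), at GAPDH (-1.93) and ACTB (-1.66 and -1.50), each with the consensus; none was above with edgeR, DESeq2 or at an unadjusted p under 0.05.

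The vehicle contrast gave the same order of classes, with a smaller gap in shares at distal CTCF sites. In vehicle cells 12994 of 40407 tested intervals were called (32.2%), 5852 above (14.5%) and 7142 below (17.7%). Distal intervals with the consensus held 24.7% ± 0.552 of CTCF counts and 12.0% ± 1.07 of RAD21 counts, a log2 ratio of -1.04 beside -1.46 in sorbitol (exact permutation p = 0.33 in each). At promoters without the consensus the log2 ratio was 0.50 in vehicle and 0.35 in sorbitol. Of the 4230 intervals below in sorbitol, 4062 were tested in vehicle, where 3166 (77.9%) were also below and 18 above. Of the 1605 above, 1385 were tested in vehicle, where 711 (51.3%) were also above and 6 below. No test was made of the difference between the class ratios. Interval by interval, in a fit on all 8 libraries, the class medians of the change lay close together. The median change of the log2 contrast with sorbitol was -0.23 at distal intervals with the consensus and -0.19 at those without it. It was -0.21 at promoters with the consensus, -0.25 at promoters without it and -0.22 over all tested intervals. Median RAD21 counts in sorbitol were only 5 and 4 over all these intervals. Over intervals tested in sorbitol, the separate fits differed less evenly. Their medians were -1.68 in sorbitol and -1.16 in vehicle at distal intervals with the consensus, and 0.10 and 0.08 without it. At promoters they were -1.06 and -0.91 with the consensus, and 0.36 and 0.63 without it. The sorbitol count filter chose these intervals, so this is a description.

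Few single intervals were called for a change of the contrast itself. An edgeR test of whether the contrast differed between treatments, on all 8 libraries, called 221 of 40309 intervals (0.548%). RAD21 was lower relative to CTCF in sorbitol than in vehicle at 184 (0.456%) and higher at 37 (0.0918%). At an unadjusted p under 0.05 there were 4876. Simulated 2-fold and 4-fold differences were recovered at 1% and 18.5%, so most changes of that size would be missed. The median difference over all tested intervals was -0.22, so directions are best read against that value. Without single libraries the total ran from 127 (CTCF sorbitol replicate 2) to 525 (RAD21 vehicle replicate 2); it was also past 1.5 times the value without RAD21 vehicle replicate 1 (458) and below it by as much without CTCF sorbitol replicate 1 (131) or CTCF vehicle replicate 1 (140). By itself, CTCF was called higher with sorbitol at 19.5% and lower at 21.2% of 37975 tested intervals (40.7% in all), and RAD21 at 2.78% and 1.19% of 14918 (3.97%). At the 184, CTCF had a median response to sorbitol of 2.37 and was called higher at 166 of 181 tested, and RAD21 a median of 0.16, with 15 higher and 11 lower of 129. At the 37, CTCF had a median of -2.22 and was called lower at 27 of 33, and RAD21 a median of 1.02, with 9 higher of 28. Both sets were chosen by the difference of these responses in the same 8 libraries. The opposite CTCF directions are therefore partly set by that choice and are only a description. Of the 184, 45 (24.5%) were tandem repeats, against 2.85% of all tested.

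**Figure D5:**
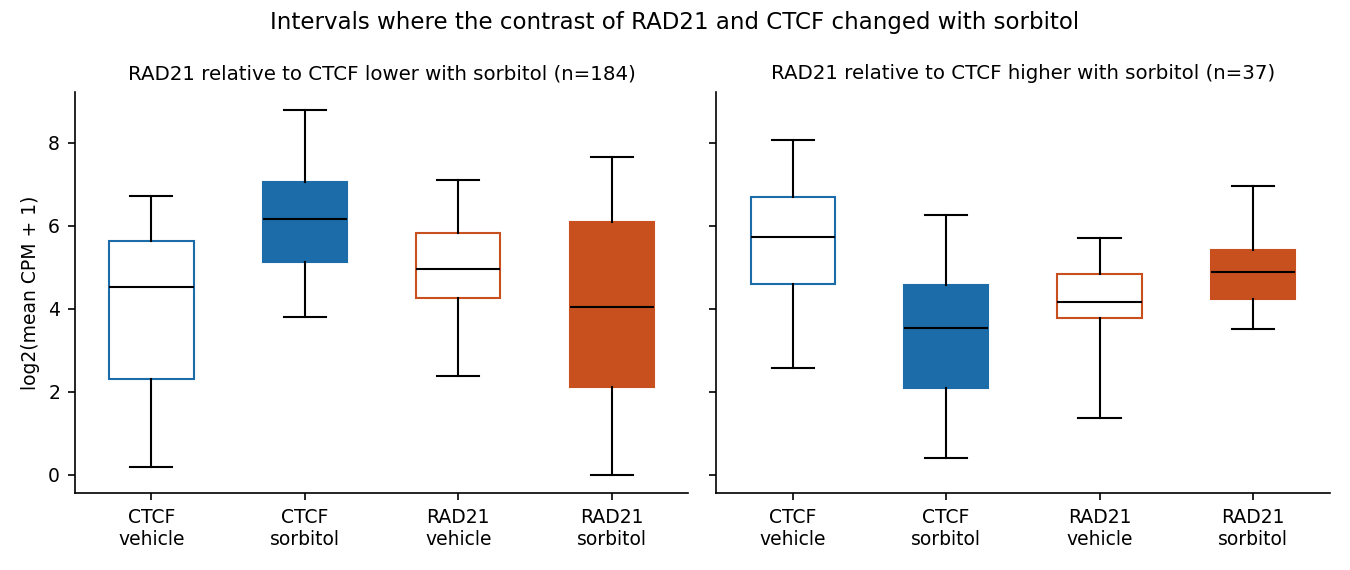
Mean level per group, log2(mean CPM + 1) on total kept counts (y axis), at the 184 and 37 intervals where the contrast changed; boxes are quartiles with medians, whiskers the 5th and 95th percentiles, open boxes vehicle and filled boxes sorbitol. The CTCF boxes move in opposite directions in the panels, in which the intervals were chosen by this difference.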

How the data were processed

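The authors deposited raw counts per interval for 16 CUT&Tag libraries, not scaled between libraries. The submitters' processing notes name Trim Galore, BWA 0.7.17, SAMtools, Picard, bedtools 2.31.1, MACS2 2.2.6 and hg38; whether peaks were called per library or pooled is not given in the sources used here. Interval starts were read as 0-based. No sample column was left unmapped.

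Groups came from the labels. The contrast was fitted on 4 libraries with edgeR 4.0.16 in R 4.3.3 (robust quasi-likelihood, two-sided, filterByExpr with 10 counts, TMM, Benjamini-Hochberg over all tested intervals); the interaction used 8. The method was tested on simulated data. CPM in the text is on TMM-scaled library sizes, except in levels summed over neighbourhoods, H3K27ac levels, mean CPM at changed contrasts and figures of levels. The log2 ratios of summed CPM, in the text and in their figure, are on the TMM scale and so depend on it. Intervals and floors cover counting error only. GENCODE 44 and hg38 gave annotation and sequence.

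Named intervals are the 10 largest contrasts per direction (adjusted p under 0.05, level above the median, no overlap between targets, 1 per nearest coding gene), the 3 largest distal ones with and without regard to the consensus, the 5 strongest, and the 5 largest changes per direction. Intervals on chromosome 8 are not reported here. Members and gene lists were chosen with earlier results of these data known. DESeq2 1.42.0, other scalings, filters, GC correction, replicate block, windows and left-out replicates were alternatives.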

Additional observations from a re-analysis of the deposited data

Results flagged for a closer look

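The contrast of RAD21 and CTCF differed between sorbitol and vehicle cells, by the interaction test of edgeR, at 184 intervals in 1 direction and 37 in the other. Among intervals with an average level above the median, the 5 largest differences in each direction (adjusted p of that test throughout) are given here as fitted log2 values; weaker intervals with larger fitted values are not named. Where a group has only 0 counts, fitted values depend on the prior count and are no bound.

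RAD21 gained on CTCF in an intron of ENSG00000234378, at chr2:20093791-20094438 (5.24, adjusted p = 0.012) and at chr2:20098058-20098621 (4.47, adjusted p = 7.5e-04). The second had 147 and 94 CTCF counts in vehicle and 4 and 2 in sorbitol, against 42 and 12 and then 20 and 16 RAD21 counts. An intron of FIRRE, a long noncoding RNA gene of the X chromosome, chrX:131762783-131764021, had 393 and 217 CTCF counts that became 6 and 4, and 22 and 7 RAD21 counts that became 11 and 4 (4.68, adjusted p = 0.0012). In an intron of NBDY, chrX:56773070-56774051, CTCF went from 917 and 691 to 32 and 29 and RAD21 from 40 and 12 to 16 and 26 (4.19, adjusted p = 1.6e-06). At LINC00350, chr13:19587375-19588069, 96 and 48 CTCF counts became 2 and 2 and 10 and 7 RAD21 counts became 7 and 5 (4.25, adjusted p = 0.041), and the call was lost in 6 of the 8 fits that left out a library (adjusted p 0.077 to 0.22). The call at the first interval was lost without CTCF sorbitol replicate 1 (adjusted p = 0.061) and that at FIRRE without RAD21 sorbitol replicate 1 (0.091). At all 5 intervals both CTCF sorbitol counts were below both vehicle counts. These raw counts are not on one scale, since both CTCF vehicle libraries and RAD21 vehicle replicate 1 were deeper than the sorbitol libraries. As mean CPM, RAD21 was slightly lower in sorbitol than in vehicle at FIRRE and higher at the other intervals named in this paragraph. A fall in raw RAD21 counts here is therefore not read as a loss of RAD21.

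RAD21 lost against CTCF in an intron of PCBP3, chr21:45746338-45746942, where CTCF went from 6 and 0 counts to 72 and 65 and RAD21 from 18 and 0 to 0 and 0 (-12.38, adjusted p = 0.0016). A repeat at chr18:78502541-78503079, 2086 bp from ENSG00000265378 and 476739 bp from the nearest coding gene SALL3, went from 10 and 0 to 54 and 50 with CTCF and from 14 and 9 to 0 and 0 with RAD21 (-11.83, adjusted p = 4.3e-04). The repeats at ANKRD33B (-11.47, adjusted p = 0.043) and BRD3OS (-10.86, adjusted p = 0.042) and a coding exon of AJM1, chr9:136846447-136846684 (-11.44, adjusted p = 0.0054), had 0 RAD21 counts in both sorbitol libraries. Without RAD21 vehicle replicate 1 the calls at PCBP3, ANKRD33B, AJM1 and BRD3OS were lost (-5.78, -7.83, -6.32 and -5.73, each with an adjusted p of 1.0); those at ANKRD33B and BRD3OS were also lost without either CTCF sorbitol or either RAD21 sorbitol replicate, respectively.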

How the results depend on the processing

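Calls in the sorbitol contrast (5835; 1605 above, 4230 below) moved with DESeq2 (2384; 401, 1983) and a mean of at least 50 counts (1813; 844, 969). Those above moved to 938 on the weakest 25%, 737 on promoters without the consensus, 810 without a filter and 949 with the replicate number as a block, under which 4473 were called in all. Same-numbered libraries deviated with a correlation of 0.00659, which does not show pairing; whether they share a culture is not known. Leaving out a library gave 2638 to 7085 calls, 446 to 1879 above and 2192 to 5247 below; the lowest were without a CTCF library. Contrast changes (221; 37, 184) moved to 109 with 64 lower by DESeq2 and 79 higher at a mean of 50; a block gave 198, and leaving out a library 127 to 525, 22 to 110 higher and 94 to 415 lower. Medians at distal intervals with the consensus, at promoters without it, and the distal difference with minus without (-1.68, 0.36, -1.79) were -1.36, 0.19 and -1.56 with GC correction, -1.61, 0.58 and -2.22 at a mean of 50, -1.47, 0.05 and -1.52 without a filter, and -1.91, 0.28 and -1.42 with the exact consensus. Leaving out a library gave -1.92 to -1.58, 0.28 to 0.40 and -2.40 to -1.49. Scalings added after seeing the data gave -1.93 and 0.12 (weakest 25%) and -2.04 (promoters). The log2 share ratio was -1.25 in sorbitol and -0.86 in vehicle without intervals above 0.1%, and -1.76 and -1.26 with the exact consensus. YAP1P1 turned to -0.06, -0.18 and, without a filter, -0.15. Repeats made up 11.4% to 37.8% of intervals above. RAD21 depth (10 and 8 counts in the median tested interval) limits what could be detected.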
